A study of Homo sapiens with 10 samples.

Results

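The genes described here are the replication-dependent histone genes of U2OS, a human osteosarcoma cell line, measured 4 h after addition of PD0332991 or of its vehicle DMSO. They were chosen by name alone: every probe set of the gene-level exon array table annotated to exactly 1 symbol from H1-1 to H1-5, or to H2AC, H2BC, H3C or H4C followed by a number. This gave 49 genes among 14232 single-symbol genes on 21980 probe sets: 5 H1, 11 H2A, 13 H2B, 9 H3 and 11 H4 genes. RefSeq lists 68 protein-coding genes of these names, and the remaining 19 are not analysed here, as no probe set carried their symbol alone. PD0332991 (palbociclib) inhibits CDK4 and CDK6, the cyclin D-dependent kinases that phosphorylate the retinoblastoma protein. Cells at a labelled seeding density of 25% had grown for 30 h in McCoy medium with 10% serum before the compound or DMSO was added. Both groups hold 5 arrays labelled as biological replicates, in an array set of 6 (replicates 1 to 3) and one of 4 (replicates 4 and 5) by the array names. A dose of 1 mM is stated in the labels; the arrays offer no means of checking that unit, and the dose is far above those common in culture.

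Replication-dependent histone genes supply the protein that packages newly made DNA. H2A, H2B, H3 and H4 form the core particle that DNA wraps around, and H1 binds the DNA between particles. Most of these genes lie in clusters, lack introns, are transcribed in S phase under NPAT, a coactivator activated by cyclin E and CDK2, and end in a stem-loop bound by SLBP in place of a poly(A) tail. Cyclin D-dependent kinases act upstream of cyclin E through the retinoblastoma protein and E2F. The comparison asked what 4 h of inhibition of these kinases left of this messenger RNA. In RNA from whole cultures, fewer cells in S phase and less histone messenger per cell cannot be told apart.

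The classes carry different promoter letters, shown here because the classes are compared below. RefSeq promoter windows of assembly GRCh38.p14, from 250 bases before to 50 after the annotated start, were found for 44 of the 49 genes. The letters GGTCCG, the end of an element known from H4 genes, were in 8 of 9 H4 windows and in 11.3% of all 35116 promoter windows. Each run of 30 bases below ends 34 to 36 bases before the start, with GGTCCG in capitals.
H4C9 (chr6:27139216-27139245, + strand): gctcttccggttttcagtctGGTCCGcaga
H4C16 (chr12:14771167-14771196, - strand): ttttttgatgttttcaaacaGGTCCGcatc
H4C6 (chr6:26240327-26240356, + strand): tccaattcagtctccaaaaaGGTCCGcata
H4C5 (chr6:26204544-26204573, + strand): gcgttttcagtcttcatttaGGTCCGaatt
H4C8 (chr6:26285571-26285600, - strand): gcgctttcagtcttcaattaGGTCCGaatt
H4C2 (chr6:26027320-26027349, - strand): ccgctttcagttctcaataaGGTCCGatgt
H4C4 (chr6:26189147-26189176, - strand): tctcatgaggttttcaaacaGGTCCGtcat
H4C13 (chr6:27873570-27873599, - strand): gtgtggagagttcccaatcaGGTCCGattt
The same letters stood before H4C9, which had the lowest log2 fold change of all 49 genes, and before H4C13, which had the highest of the H4 class. H4C13 was dim, however, with a mean log2 level of 4.62 where the lower quartile over probe sets was 5.24. Its values in array sets 1 and 2 were 0.78 and -0.38. H4C7 was the H4 gene with a window and no match.

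The letters AAACACA, known as the H1 box, were in 5 of 5 H1 windows, in 0 of the other 39, and in 5.64% of all promoter windows. They are in capitals below, and in H1-1 the match is on the opposite strand, so that its complement is shown.
H1-2 (chr6:26056571-26056600, - strand): tgaggtggaacAAACACAacttgggagcag
H1-4 (chr6:26156201-26156230, + strand): tgaggtgtaacAAACACAactcgggatccg
H1-1 (chr6:26017952-26017981, - strand): ggctttttctgTGTGTTTgcttgcgttgag
H1-3 (chr6:26235088-26235117, - strand): taaggggcaacAAACACAgcagcgcggtag
H1-5 (chr6:27867687-27867716, - strand): tgaggactaacAAACACAatttgggagtcc
The octamer ATTTGCAT, a binding sequence of the factor POU2F1, was in 10 of 13 H2B and 8 of 10 H2A windows, against 1.77% of all windows and 0 of the H1, H3 and H4 windows. CCAAT was in all 35 H1, H2A, H2B and H3 windows and in 3 of 9 H4 windows (34.6% of all windows). TATAAA was in 29 of 44 (11.5% of all). Of 3 E2F spellings, TTTCGCGC was in 7 windows (0.515% of all), TTTCCCGC in 1 (1.63%) and TTTGGCGC in 0 (0.652%). Both strands were searched, and matches of different motifs overlapped in 2 of the 44 windows. Windows of H2A and H2B genes that lie head to head overlap, with 194 to 248 bases between starts in the 7 measured pairs. The same site can then count for both genes, as the octamer and TATAAA matches of H2AC8 and H2BC8 did, so the H2A and H2B counts are not independent. Octamer windows were those of 18 genes with a median log2 fold change of -0.24, of which 14 were below 0. The 26 without had a median of -0.12, with 17 below 0. As only H2A and H2B windows held the octamer, this split is also one by class. For TATAAA the gap went the other way. The 29 genes with it had a median of -0.09 (18 below 0), and the 15 without had -0.22 (13 below 0). For the E2F spelling TTTCGCGC the medians with and without were -0.13 and -0.13. These are descriptions of short windows, and a match is not a measured site.

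The 250 bases before the start are given for 3 genes whose values are described below. They are H4C9, the gene with the lowest log2 fold change; H3C10, the single gene whose treated arrays all lay below all DMSO arrays; and H2AC8, which faces H2BC8 across this sequence. Capitals mark GGTCCG and CCAAT in H4C9, CCAAT and TATAAA in H3C10, and ATTTGCAT, CCAAT and TATAAA or their complements in H2AC8.
H4C9 (chr6:27139032-27139281, + strand): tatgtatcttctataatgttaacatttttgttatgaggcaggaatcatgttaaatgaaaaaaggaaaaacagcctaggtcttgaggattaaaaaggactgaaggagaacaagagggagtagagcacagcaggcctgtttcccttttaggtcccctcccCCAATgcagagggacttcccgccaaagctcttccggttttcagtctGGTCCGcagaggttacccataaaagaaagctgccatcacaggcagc
H3C10 (chr6:27809801-27810050, + strand): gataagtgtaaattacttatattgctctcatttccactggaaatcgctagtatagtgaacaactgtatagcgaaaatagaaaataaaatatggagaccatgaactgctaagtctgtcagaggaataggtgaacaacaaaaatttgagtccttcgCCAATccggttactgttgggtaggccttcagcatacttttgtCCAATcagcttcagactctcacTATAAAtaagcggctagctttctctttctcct
H2AC8 (chr6:26216671-26216920, + strand): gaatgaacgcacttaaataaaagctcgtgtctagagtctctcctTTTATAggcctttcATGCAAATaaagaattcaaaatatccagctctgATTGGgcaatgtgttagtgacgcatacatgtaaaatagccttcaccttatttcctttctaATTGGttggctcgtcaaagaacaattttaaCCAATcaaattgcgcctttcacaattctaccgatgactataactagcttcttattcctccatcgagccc

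The arrays and the treatment were checked first. The median log2 value of an array was 6.95 to 7.06. Over all probe sets 11 passed the adjusted threshold of 0.05 (limma with array set as a covariate), which is 0.05% of those tested, among them CCNE2 at -1.89 and E2F2 at -1.01, targets of E2F, and DDIT4, an inhibitor of mTORC1, at 1.28. Osteoblast and mesenchymal markers were the bright marker list, with a mean level of 9.68 to 9.94 per array over 11 genes, against 5.55 to 6.17 for 6 epithelial, 4.80 to 5.47 for 4 blood and 5.07 to 5.76 for 3 endothelial markers. DMSO replicate 1 stood apart: the median absolute distance of all probe sets from the mean of the other DMSO arrays was 0.36, against 0.16 to 0.26 for DMSO replicates 2 to 5. Over the histone genes this distance was 0.49 against 0.18 to 0.28, so results are given with and without that array.

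No histone gene passed the test on its own. The smallest limma adjusted p was 0.545, for H4C9. At an unadjusted p under 0.05, 5 of 49 genes were lower after PD0332991, where 2.76% of all probe sets were, and 0 were higher, where 1.41% were. These 5 were H4C9, H2AC12, H3C10, H4C1 and H2BC10. Leaving out DMSO replicate 1 gave 9 lower genes, where 3.72% of all probe sets were lower in that fit. Leaving out PD0332991 replicate 5 gave 3, where 2.27% were. In direction, 35 of the 49 log2 fold changes were below 0 and 14 above, a share of 71.4% below 0 against 55.2% of all probe sets. The median was -0.17 against -0.02 over the 14232 genes, and without DMSO replicate 1 it was -0.12 against 0.01, with 34 genes below 0. The 95% confidence interval of a histone gene had a median half-width of 0.40, so differences of the size of these medians were below what a single gene could show here. Near-identical copies can share probes, so the 49 values are not independent of each other.

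**Figure D1:**
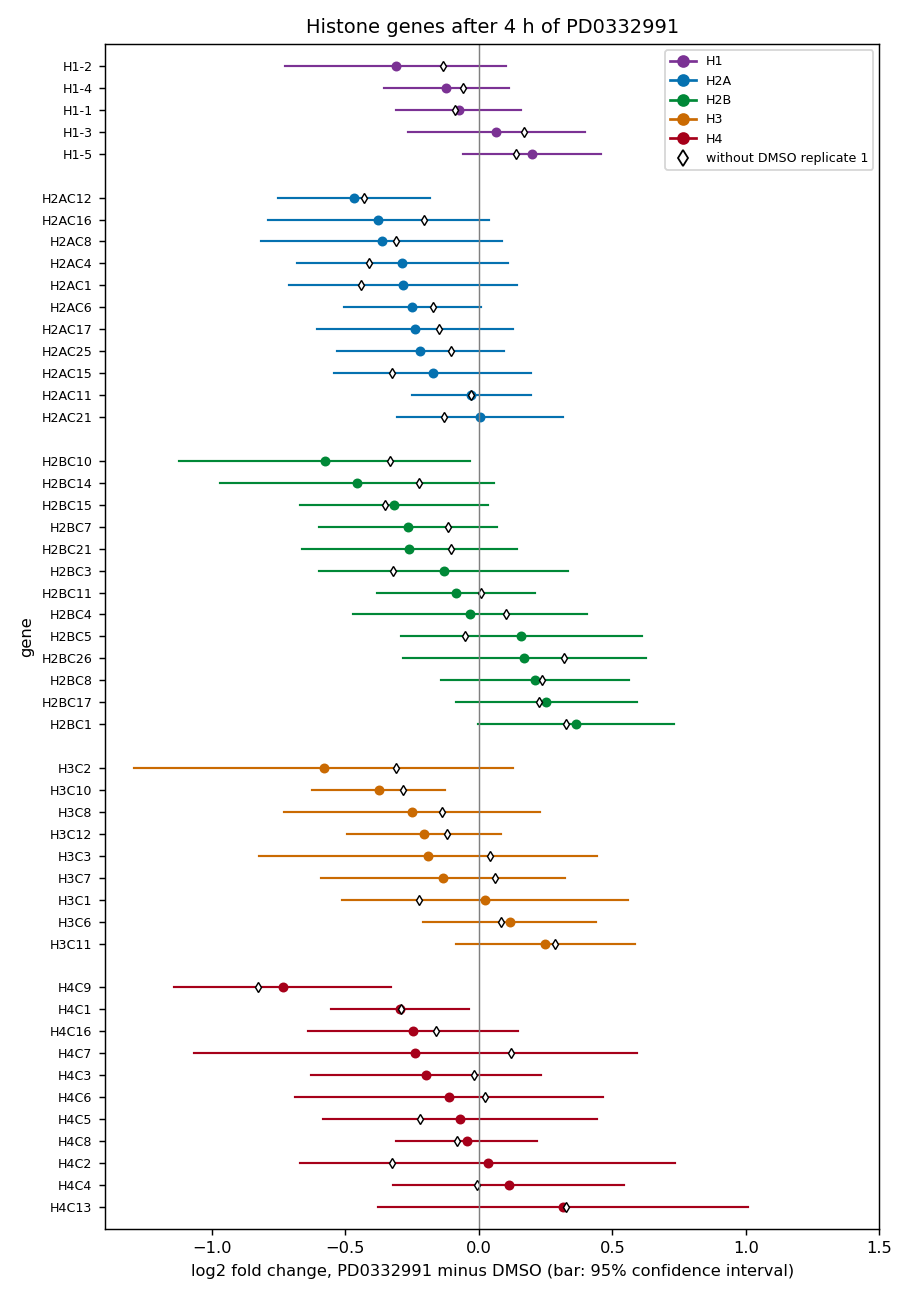
Log2 fold change (PD0332991 minus DMSO) of the 49 histone genes by class, with 95% confidence intervals from limma on 10 arrays; open diamonds give the value without DMSO replicate 1. Of the 49 points 35 lie left of 0, most intervals cross 0, and H4C9 lies farthest left at -0.74.

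By class, H2A had the lowest median over all 10 arrays. Of 11 H2A genes 10 were below 0, with a median log2 fold change of -0.25. The other medians were -0.19 for H3 (6 of 9 below 0), -0.11 for H4 (8 of 11), -0.09 for H2B (8 of 13) and -0.08 for H1 (3 of 5). Differences between the classes were described and not tested. The order turned in array set 2 alone, where H3 was at -0.25 and H2A at -0.22, and without DMSO replicate 3, where H3 was at -0.26 and H2A at -0.25. The array sets fitted apart gave H2A -0.26 in set 1 and -0.22 in set 2, with 10 of 11 genes below 0 in each. For H3 they gave -0.15 and -0.25, and for H2B -0.06 and -0.05. The medians of H1 (-0.16 and 0.06) and H4 (-0.25 and 0.05) had opposite signs in the sets. Without DMSO replicate 1 the medians were -0.20 for H2A, -0.12 for H3, -0.08 for H4, -0.05 for H2B and -0.06 for H1. Leaving out single arrays left the H2A median between -0.30 and -0.20 and moved that of H4 from -0.22 (without DMSO replicate 3) to 0.0004 (without PD0332991 replicate 3). The treatment effect was compared between the array sets by limma's interaction term, which gave 1 histone gene at an unadjusted p under 0.05, near the 2.56% of all probe sets, and 0 after adjustment.

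The mean level of each class was also taken on each array. The H2A mean was 8.74, 8.82, 8.65, 8.73 and 8.69 on DMSO replicates 1 to 5, and 8.53, 8.49, 8.50, 8.46 and 8.41 on PD0332991 replicates 1 to 5 (log2). All 5 treated arrays thus lay below all 5 DMSO arrays, and DMSO replicate 1 lay inside the range of its group. The mean over all 49 genes, which includes H2A, did not overlap either, at 7.87 to 8.08 in DMSO and 7.75 to 7.86 after treatment. That gap was narrow, between 7.8688 on DMSO replicate 3 and 7.8585 on PD0332991 replicate 1. How often means over other genes separate in this way was not measured, for H2A or for all 49. The H4 mean was 7.71, 7.73, 7.69, 7.86 and 7.77 in DMSO and 7.69, 7.59, 7.41, 7.71 and 7.68 after treatment, and these ranges overlapped. In H3 the DMSO means were 7.56, 7.06, 7.15, 7.09 and 7.19 and the treated means 7.12, 6.96, 7.21, 6.96 and 7.06. There DMSO replicate 1 was highest, and the other DMSO arrays lay inside the range of the treated arrays. The H2B means ran from 7.25 to 7.59 in DMSO and from 7.17 to 7.39 after treatment, and those of H1 from 9.32 to 9.64 and from 9.23 to 9.45. In both classes DMSO replicate 1 gave the highest value, and the other DMSO arrays (7.25 to 7.31, and 9.32 to 9.45) overlapped with the treated arrays. Probe brightness differs between genes, so these levels do not rank the classes by abundance.

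**Figure D2:**
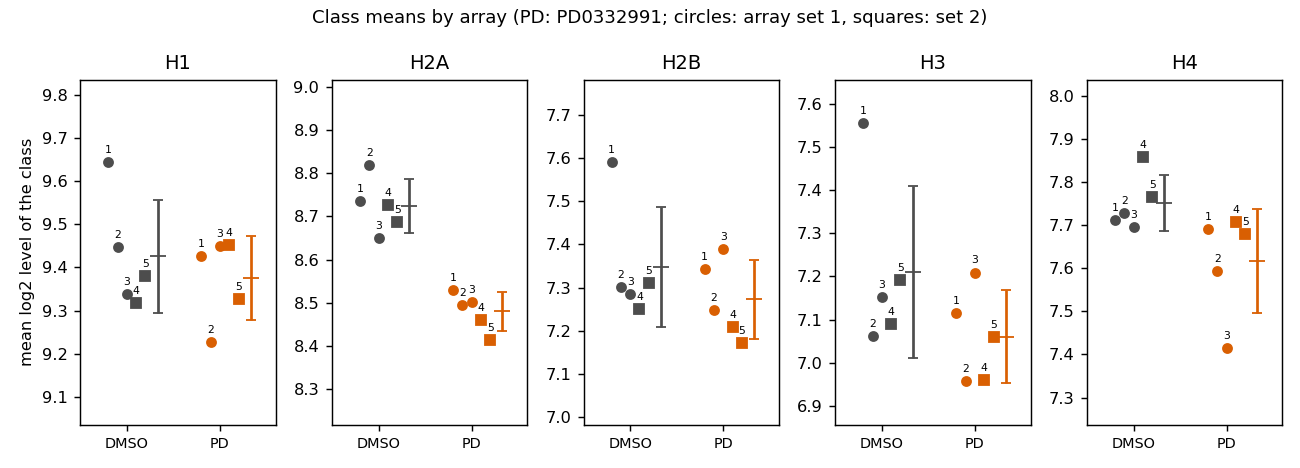
Mean log2 level of each histone class on each array, numbered by replicate, with group mean and SD at the right of each group (n = 5); each panel spans the same log2 height. The H2A arrays separate, 8.41 to 8.53 after treatment and 8.65 to 8.82 in DMSO, and DMSO replicate 1 is the highest array for H1, H2B and H3.

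H4 is the most conserved histone, and most of its genes encode the same protein from separate loci. H4C9 had log2 levels of 8.43, 9.15, 8.79, 8.48 and 9.18 on DMSO replicates 1 to 5 and 8.09, 7.93, 7.98, 7.87 and 8.48 on PD0332991 replicates 1 to 5. Within each array set all treated arrays were below all DMSO arrays, and across sets only PD0332991 replicate 5 reached the range of DMSO. The log2 fold change was -0.74 ± 0.18 (SE, n = 5), a 1.67-fold lower level with a 95% confidence interval of 1.26 to 2.21 (limma adjusted p = 0.545), and -0.83 without DMSO replicate 1 (limma adjusted p = 0.257). The array sets gave -0.79 and -0.66. H4C1 was at -0.30 ± 0.12, with 9.62, 9.44, 9.68, 10.37 and 9.94 in DMSO against 9.34, 9.50, 9.12, 9.84 and 9.76, so that its groups overlapped. H4C16, a gene outside the main clusters, was at -0.25 and H4C3 at -0.20, and both were above 0 in array set 2 alone (0.09 and 0.05). The other H4 genes ran from -0.24 (H4C7) to 0.31 (H4C13). Both of these were dim, with mean levels of 4.49 and 4.62, and H4C7 was at 0.12 without DMSO replicate 1.

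H4C2 turned on 1 control array. Its DMSO levels were 9.29, 11.09, 11.19, 11.39 and 11.42 and its treated levels 10.74, 10.67, 10.76, 11.14 and 11.23. DMSO replicate 1 was the lowest of all 10 arrays by a wide gap. With it the log2 fold change was 0.03 ± 0.32, and without it -0.33 ± 0.08 (limma adjusted p = 0.320), the treated arrays of each set then lying below the DMSO arrays of that set.

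H2A genes encode a core histone that pairs with H2B. H2AC12 had DMSO levels of 11.72, 11.64, 11.33, 11.02 and 11.34 and treated levels of 11.09, 10.99, 11.32, 10.46 and 10.85. Within each array set the groups did not overlap, although PD0332991 replicate 3 lay just under DMSO replicate 3. The log2 fold change was -0.47 ± 0.13 (SE, n = 5), 1.38-fold lower with a 95% confidence interval of 1.13 to 1.69 (limma adjusted p = 0.652), and -0.43 without DMSO replicate 1. H2AC6, which is also known to make polyadenylated transcripts, was at -0.25 ± 0.12, with 9.86, 9.35, 9.58, 9.67 and 9.46 in DMSO and 9.28, 9.19, 9.41, 9.47 and 9.32 after treatment. H2AC16 was at -0.38 (-0.20 without DMSO replicate 1) and H2AC8 at -0.36. H2AC4 (-0.29), H2AC1 (-0.29), H2AC15 (-0.17) and H2AC21 (0.00) had lower values without DMSO replicate 1, at -0.41, -0.44, -0.33 and -0.13, and then 11 of 11 H2A genes were below 0. H2AC17 was at -0.24 with dim levels (mean 4.68), H2AC25 at -0.22 and H2AC11 at -0.03.

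H3 genes encode the core histone that carries most of the well known lysine marks. H3C10 had DMSO levels of 9.36, 8.85, 8.90, 8.80 and 8.81 and treated levels of 8.61, 8.68, 8.60, 8.39 and 8.56. It was the 1 histone gene with all 5 treated arrays below all 5 DMSO arrays, an order held by 0.560% of all probe sets, while 0 histone genes had the opposite order (0.214% of all probe sets). The log2 fold change was -0.38 ± 0.11 (SE, n = 5), 1.30-fold lower with a 95% confidence interval of 1.09 to 1.54 (limma adjusted p = 0.782), and -0.28 without DMSO replicate 1. Compared within array sets, 5 histone genes had all treated arrays below the DMSO arrays (H4C9, H2AC12, H3C10, H2BC7 and H2BC10; 1.45% of all probe sets) and 0 had them above (0.814%). H3C2 was at -0.58 ± 0.32, with DMSO levels of 11.996, 10.54, 10.78, 9.56 and 10.05 against 10.11, 9.93, 10.87, 10.02 and 9.09, and overlapped widely. H3C12 was at -0.21 and H3C11 at 0.25, and H3C1 was at 0.02 with DMSO replicate 1 and -0.23 without it.

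**Figure D3:**
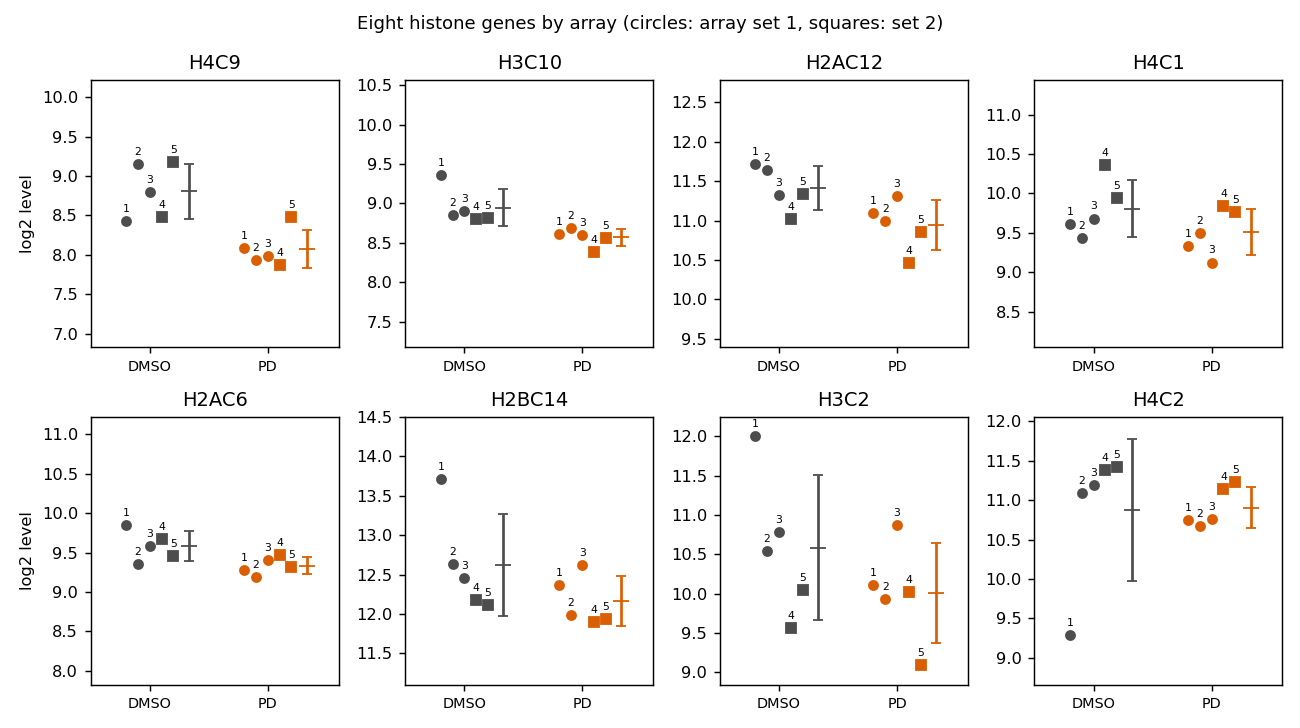
Log2 level of 8 histone genes on each array, numbered by replicate, with group mean and SD at the right of each group (n = 5); each panel spans the same log2 height. H3C10 separates fully, H4C9 separates within sets, and DMSO replicate 1 lies far above its group in H3C2 (11.996) and H2BC14 (13.71) and far below it in H4C2 (9.29).

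H2B genes held values on both sides of 0. H2BC10 was at -0.58 ± 0.25, but its levels were dim, from 2.57 to 3.97 in DMSO and 2.28 to 2.65 after treatment, where the lower quartile over probe sets was 5.24. H2BC14 had DMSO levels of 13.71, 12.64, 12.45, 12.18 and 12.12 and treated levels of 12.37, 11.99, 12.62, 11.89 and 11.94, for a log2 fold change of -0.46 ± 0.23, or -0.23 without DMSO replicate 1. H2BC15 was at -0.32 ± 0.16, and H2BC7 at -0.26. At the other end stood H2BC1, a gene known from testis, at 0.36 ± 0.16 with dim levels, H2BC17 at 0.25, H2BC8 at 0.21 and H2BC26 at 0.17. H2AC1 and H1-1, the other genes listed as known from testis, were below 0, at -0.29 and -0.08. H1-1 was bright here, with a mean level of 13.07, against 5.33 for H2AC1 and 4.28 for H2BC1. H2BC21, H2BC4 and H2BC5, which are also known to make polyadenylated transcripts, were at -0.26, -0.03 and 0.16.

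H1 genes encode the linker histones. H1-2, for which polyadenylated transcripts are also known, was at -0.31 ± 0.19 and at -0.14 without DMSO replicate 1, whose level of 12.32 stood above 11.30 to 11.49 on the other DMSO arrays. H1-4 was at -0.12 ± 0.11 and H1-1 at -0.08 ± 0.10, and both were above 0 in array set 2 alone (0.02 and 0.06). H1-5 at 0.20 ± 0.12 and H1-3 at 0.06 ± 0.15 were dim, with mean levels of 4.53 and 4.82.

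Many H2A and H2B genes lie head to head and share the bases between their starts. In 7 such pairs both genes were measured, with 194 to 248 bases between the RefSeq starts. The H2A gene was below 0 in 7 of 7 and the H2B gene in 3 of 7. Without DMSO replicate 1 these counts were 7 and 1, and the signs were opposite in 6 pairs. With all arrays the signs were opposite in 4 pairs: H2AC1 at -0.29 and H2BC1 at 0.36, H2AC8 at -0.36 and H2BC8 at 0.21, H2AC17 at -0.24 and H2BC17 at 0.25, and H2AC25 at -0.22 and H2BC26 at 0.17. In the other 3, H2AC6 was at -0.25 and H2BC4 at -0.03, H2AC11 at -0.03 and H2BC11 at -0.09, and H2AC15 at -0.17 and H2BC15 at -0.32. In array set 2 alone H2AC17 (0.06) and H2BC17 (-0.05) had the reverse signs. H2BC1 and H2AC17, from the pairs of opposite sign, were dim, with mean levels of 4.28 and 4.68 under the lower quartile of 5.24. The H2A value was the lower of the pair in 5 of 7, in 6 of 7 without DMSO replicate 1, and in 5 and 4 of 7 in array sets 1 and 2. The difference between partners was not tested, and the standard errors of 0.10 to 0.20 are as large as many of these values.

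**Figure D4:**
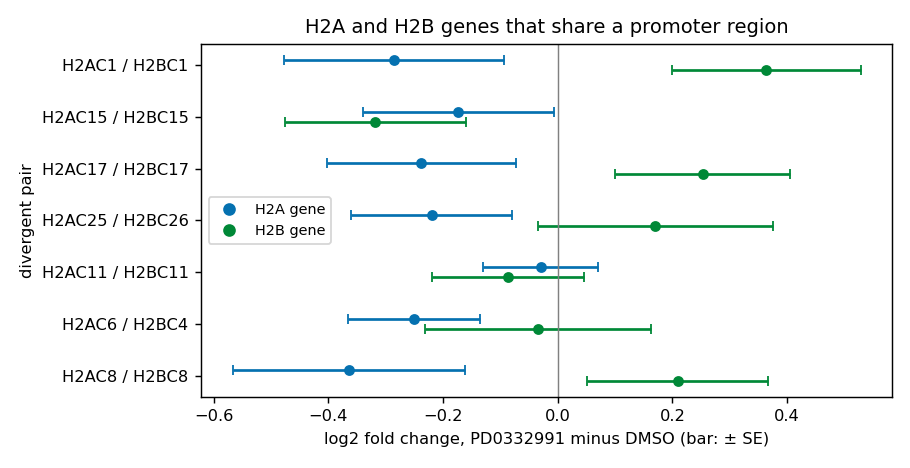
Log2 fold change (PD0332991 minus DMSO, ± SE, n = 5 arrays per treatment) of the 7 divergent H2A and H2B gene pairs with both genes measured. The 7 H2A points lie left of 0, and the H2B points lie on both sides, from -0.32 to 0.36.

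The effect of DMSO replicate 1 on single genes was wide. It held the highest of all 10 values for 23 of the 49 genes and the lowest for 9. Among DMSO arrays alone it was above the other 4 for 25 genes and below them for 13, by more than 1 log2 unit from their mean for 5 and 3 genes. Leaving it out changed the sign of 11 genes: 5 moved below 0 (H2AC21, H2BC5, H3C1, H4C2 and H4C4) and 6 moved above 0 (H2BC4, H2BC11, H3C3, H3C7, H4C6 and H4C7). Its part in the class medians is given by the values without it above.

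**Figure D5:**
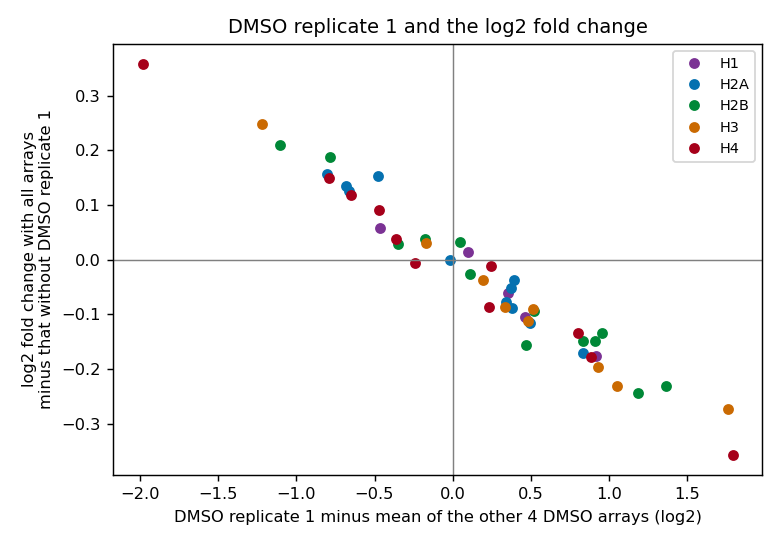
Horizontal axis: log2 level of DMSO replicate 1 minus the mean of the other 4 DMSO arrays; vertical axis: log2 fold change with all 10 arrays minus that without DMSO replicate 1, for the 49 histone genes. The downward slope follows from the calculation, and the spread along the horizontal axis shows how far this array differed, with H4C2 at the upper left.

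Genes that act on histone genes and messengers were read from lists of known factors. Of 10 measured genes of histone gene transcription 9 were below 0 (median -0.12), against 55.2% of all probe sets. CCNE1 (-0.95) and CCNE2 (-1.89), E-type cyclins that activate CDK2, fell past the adjusted threshold (limma adjusted p = 0.00911 for both). Over all probe sets 0.05% passed it, and CCNE2 is also a treatment check gene above. CCNA2, another cyclin of the list, was at -0.06. At an unadjusted limma p under 0.05, CCNE1 and CCNE2 were lower and HINFP higher, against 2.76% and 1.41% of all probe sets. NPAT had no single-symbol probe set and is not analysed here. CASP8AP2, which works with NPAT in histone gene transcription and 3' end formation, was at -0.18 ± 0.15. HINFP, the factor of the H4 element, was at 0.35 ± 0.12 (limma adjusted p = 0.997), with 6.76, 6.91, 7.29, 6.99 and 7.20 in DMSO and 7.48, 7.50, 7.40, 7.23 and 7.32 after treatment, so all but 1 treated array lay above the DMSO range.

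Of 16 measured genes of histone messenger processing and decay 6 were below 0 and 10 above (median 0.02), and 0 passed by limma. At an unadjusted limma p under 0.05, 1 was lower and 0 higher, against 2.76% and 1.41% of all probe sets. That 1 was SLBP, the stem-loop binding protein, whose protein level follows the cell cycle, while the arrays measured its messenger. SLBP had 9.49, 9.75, 9.51, 9.14 and 9.10 in DMSO and 9.12, 9.09, 9.45, 8.59 and 8.79 after treatment. Within array sets the groups did not overlap, and the log2 fold change was -0.39 ± 0.11 (limma adjusted p = 0.652). The U7 particle subunits LSM10 and LSM11 were at 0.13 and 0.02, the processing factor ZNF473 at -0.14 and the exonuclease ERI1 at 0.17.

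Of 23 measured histone chaperones and import factors 10 were below 0 and 13 above (median 0.01), and 0 passed by limma. At an unadjusted limma p under 0.05, 4 were lower and 1 higher, against 2.76% and 1.41% of all probe sets. The 1 higher was ATRX at 0.29, with dim mean levels of 4.62 in DMSO and 4.92 after treatment. The 4 lower included CHAF1B at -0.50 and CHAF1A at -0.48, subunits of the complex that deposits H3 and H4 at replication forks. The others were HJURP at -0.37, the chaperone of the centromeric H3 variant, and ASF1B at -0.28, an H3 and H4 chaperone. Among 8 measured histone variants made outside S phase or throughout the cycle, 6 were below 0 (median -0.08), and 0 passed by limma. At an unadjusted limma p under 0.05, 1 was lower and 0 higher, beside the same shares of all probe sets. That 1 was H2AX, the variant phosphorylated at DNA breaks, at -0.47 ± 0.13 (limma adjusted p = 0.652), with 10.49, 9.85, 9.92, 10.24 and 10.30 in DMSO and 9.68, 9.46, 9.65, 9.86 and 9.81 after treatment. PD0332991 replicate 4 alone reached the DMSO range, and the sets gave -0.49 and -0.44. H2AZ1 was at 0.09, H2AZ2 at -0.05, H1-10 at -0.21, H2AJ at -0.15, MACROH2A1 at 0.11, MACROH2A2 at -0.07 and CENPA at -0.10.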

How the data were processed

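Total RNA was labelled as single-stranded cDNA and hybridised to exon arrays, per the labels' protocols, which do not name the primer. The authors deposited log2 expression values, 1 per gene-level probe set and array; RMA, Partek and the build hg18 are named in the submitters' processing notes, without versions or parameters. Probe sets were named through the platform annotation, with symbols checked by Entrez identifier against RefSeq (0 changed, 28 without a match); 14432 had 1 symbol, 2408 several and 5140 none. No histone gene had several single-symbol probe sets. Treatment was tested on the deposited values with limma 3.58.1 in R 4.3.3 (lmFit, eBayes, 2-sided, array set as covariate, Benjamini-Hochberg over 21980 probe sets, threshold 0.05), after a check on simulated data. Statistics are given in full for up to 4 genes per class with the smallest p. The members and lists were chosen with earlier results of these data known, so no list was tested. No detection calls were used; precision rests on 5 arrays a group. Alternatives covered the model, quantile and cyclic loess normalization, leaving out the dimmest 33.3%, array weights, array sets and leaving out each array. Promoters are RefSeq's (GRCh38.p14); no array coordinates are given, as the array build differs. Figures used Matplotlib 3.10.9.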

Additional observations from a re-analysis of the deposited data

Results flagged for a closer look

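Within the 5 arrays of a treatment, 7 of 98 gene and treatment groups held an array far from the other 4 (a gap over 0.71 of the group's range). Chance flags about 1 in 20 groups. DMSO replicate 1 was that array in 6 of the 7. It was the highest for H1-2 (12.32, next 11.49), H3C10 (9.36, next 8.90) and H4C3 (12.10, next 11.33). It was the lowest for H4C2 (9.29, next 11.09), H3C1 (10.18, next 11.26) and H2AC21 (12.57, next 13.23). The remaining one was H2AC4 on PD0332991 replicate 2 (8.31, next 8.83). The part of that array's quality in these values was not tested.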

How the results depend on the processing

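Under 11 alternatives and 10 fits without 1 array, 0 histone genes passed the adjusted threshold in any fit that tested them, with a smallest limma adjusted p of 0.126 among the 20 genes named with the smallest p per class. In 5 alternatives the fold changes of those genes are fixed by construction. Under the 15 settings that can move them, 296 of 300 values kept their direction. Those genes were picked by small p in these same data, which favours a kept direction, and 10 of the settings leave out only 1 array. The count therefore does not speak for all 49 genes, of which 11 changed sign without DMSO replicate 1. The count of probe sets called was 63 with array weights, 0 in either array set alone, and 2 to 23 without 1 array. Histone genes lower at an unadjusted p under 0.05 numbered 10 with array weights (4.64% of all probe sets), 2 in set 1 alone (2.02%) and 3 to 9 without 1 array (2.09% to 3.72%). Array weights, which gave DMSO replicate 1 the lowest weight (0.147), moved the median of all histone genes to -0.11, that of H2A to -0.20, H2B to -0.0065, H4 to -0.0393 and H2AZ1 to -0.0363. Set 1 alone gave an H4 median of -0.25, CASP8AP2 at 0.007 and H2AZ2 at 0.0464. Set 2 alone gave medians of 0.0562 for H1 and 0.0541 for H4, H1-4 at 0.0237, H1-1 at 0.0562, H4C16 at 0.0947, H4C3 at 0.0541 and LSM11 at -0.0404. Without 1 array the medians ran from -0.22 to -0.10 (all), -0.13 to -0.01 (H1), -0.30 to -0.20 (H2A), -0.14 to -0.05 (H2B), -0.26 to -0.08 (H3) and -0.22 to 0.0004 (H4), H2AZ1 from -0.0358 to 0.19, H2AZ2 from -0.0875 to 0.0106 and LSM11 from -0.0844 to 0.0706. The cause was not tested, beyond the fewer arrays of these fits. Quantile normalization and cyclic loess put 38 of 49 histone genes and 11 of 11 H2A genes below 0. Whether the replicate numbers pair the arrays was not settled. Deviations from the group means correlated at 0.54 in same-numbered arrays of replicate 3, and at 0.40 with array set also taken out. For replicates 4 and 5 they correlated at 0.23 and 0.20, and for replicates 1 and 2 at 0.04 and 0.07. With their own number 2 of 5 DMSO arrays correlated best. With replicate number as a block (replicate block), 2 probe sets and 0 histone genes were called, and 6 histone genes were lower at an unadjusted p under 0.05 (3.41% of all probe sets). Adding 2 probe sets with several symbols of 1 class gave medians of -0.27 for H2A and -0.06 for H2B.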

Other observations

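The histone genes were also divided by the gene cluster that their older symbols name and by brightness. Of 44 genes of the HIST1 cluster 32 were below 0, with a median of -0.15. HIST2 gave H2AC21 (0.00) and H2BC21 (-0.26), HIST3 gave H2AC25 (-0.22) and H2BC26 (0.17), and HIST4 gave H4C16 (-0.25), so the smaller clusters held too few genes to compare. Of 38 genes with a mean level above the lower quartile of all probe sets (5.24), 31 were below 0, with a median of -0.20, where 52.0% of the 11451 single-symbol genes above that level were. Of the 11 dimmer genes 4 were below 0. By class the brighter genes below 0 were 3 of 3 for H1, 9 of 10 for H2A, 6 of 10 for H2B, 6 of 7 for H3 and 7 of 8 for H4.

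In both array sets taken alone 23 of the 49 genes were below 0 and 6 above, and the remaining genes had opposite signs.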
